A study of Mus musculus with 30 samples.

Results

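The interaction of AMPK loss and unloading asks, for each gene, whether soleus muscle responded to hindlimb unloading by the same amount when muscle AMPK was missing as when it was present. It was computed as the log2 change from ambulatory to unloaded in knockout mice minus the log2 change from ambulatory to unloaded in control mice. A positive value means that the response was more positive in knockout mice, and a negative value that it was more negative. All 30 libraries of the series entered the contrast. Of 56980 genes in the count table, 16932 passed the filter on low counts and were tested with all 30 libraries, and 17055 when ambulatory knockout replicate 2, a library poor in fibre transcripts, was left out.

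The soleus was taken from C57BL/6J mice aged 3 to 4 months. Ambulatory (AMB) mice walked freely for 4 weeks and unloaded (HU) mice had their hindlimbs lifted off the ground for 4 weeks. Control (Ctrl) mice carried floxed alleles of the genes of both catalytic AMPK subunits and no Cre, and knockout (mKO) mice had both genes deleted in skeletal muscle. There were 8 AMB Ctrl (3 male, 5 female), 7 AMB mKO (5 male, 2 female), 7 HU Ctrl (4 male, 3 female) and 8 HU mKO mice (3 male, 5 female). Replicate 2 is 1 of the 2 AMB mKO females. Sex entered the fits as 1 term common to all groups. An unloading response that differs between sexes could therefore add to the interaction, which was not tested. Libraries held between 12.1 and 20.9 M counts. Because controls had no Cre, loss of AMPK and presence of Cre cannot be told apart. No source used here names the promoter that drove Cre. Each group also holds samples with all 3 title letters (a, b, c), whose meaning is unknown.

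AMP-activated protein kinase (AMPK) is a trimer of a catalytic α, a scaffolding β and a nucleotide-sensing γ subunit. It is switched on when the cell's energy charge falls, promotes glucose uptake, fat oxidation and autophagy, and restrains lipid synthesis and growth through mTORC1. The soleus is a postural muscle rich in slow oxidative fibres, and when its load is removed it atrophies, loses oxidative capacity and shifts toward fast myosins. An interaction contrast separates genes whose response to unloading depends on genotype from genes that respond alike in both genotypes. Genes that respond alike include those that differ between genotypes by the same amount at both loads.

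The targeted genes came first as a check of the labels. Normalised read counts relative to library size (CPM, counts scaled to the effective size of each library) of Prkaa2, which encodes catalytic subunit α2, ran from 170 through a median of 210.2 to 258 in AMB Ctrl and from 129.9 through 253 to 346 in HU Ctrl. In AMB mKO they ran from 15.0 through 63.5 to 85.1 and in HU mKO from 56.0 through 80.3 to 112. Every mKO library lay below every Ctrl library at the same load. Prkaa1, which encodes subunit α1, had medians of 20.7 CPM in AMB Ctrl, 15.5 in AMB mKO, 23.9 in HU Ctrl and 16.2 in HU mKO, and its groups overlapped, with AMB mKO replicate 2 the highest of all at 36.2 CPM. Counts are per gene and cover exons outside the deleted segments and cells other than fibres. The interaction was 0.26 ± 0.35 (log2, SE) for Prkaa2 and -0.40 ± 0.26 for Prkaa1 with all libraries, and 0.03 ± 0.27 and -0.05 ± 0.22 without AMB mKO replicate 2.

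AMB mKO replicate 2 stood apart. Its 10 muscle fibre markers summed to 9792 CPM against 211601 to 298943 in the other AMB mKO libraries and 94600 to 345366 in the other groups, and its adipocyte markers summed to 10938 CPM against at most 2672 elsewhere. Its Schwann cell markers summed to 1606 CPM against at most 86.3 in the rest of its group. Since this group enters only 1 side of the contrast, the counts of calls and the list medians are given with all 30 libraries and with the 29 that remain, and single genes mostly with the 29. HU mKO replicates 2 and 3 were the next highest in adipocyte markers, at 2574 and 2672 CPM, and also held 869 and 1831 CPM of Schwann cell markers. All 10 muscle fibre markers were detected in each group. In bulk RNA, fewer cells of a type and less RNA per cell cannot be told apart.

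**Figure D1:**
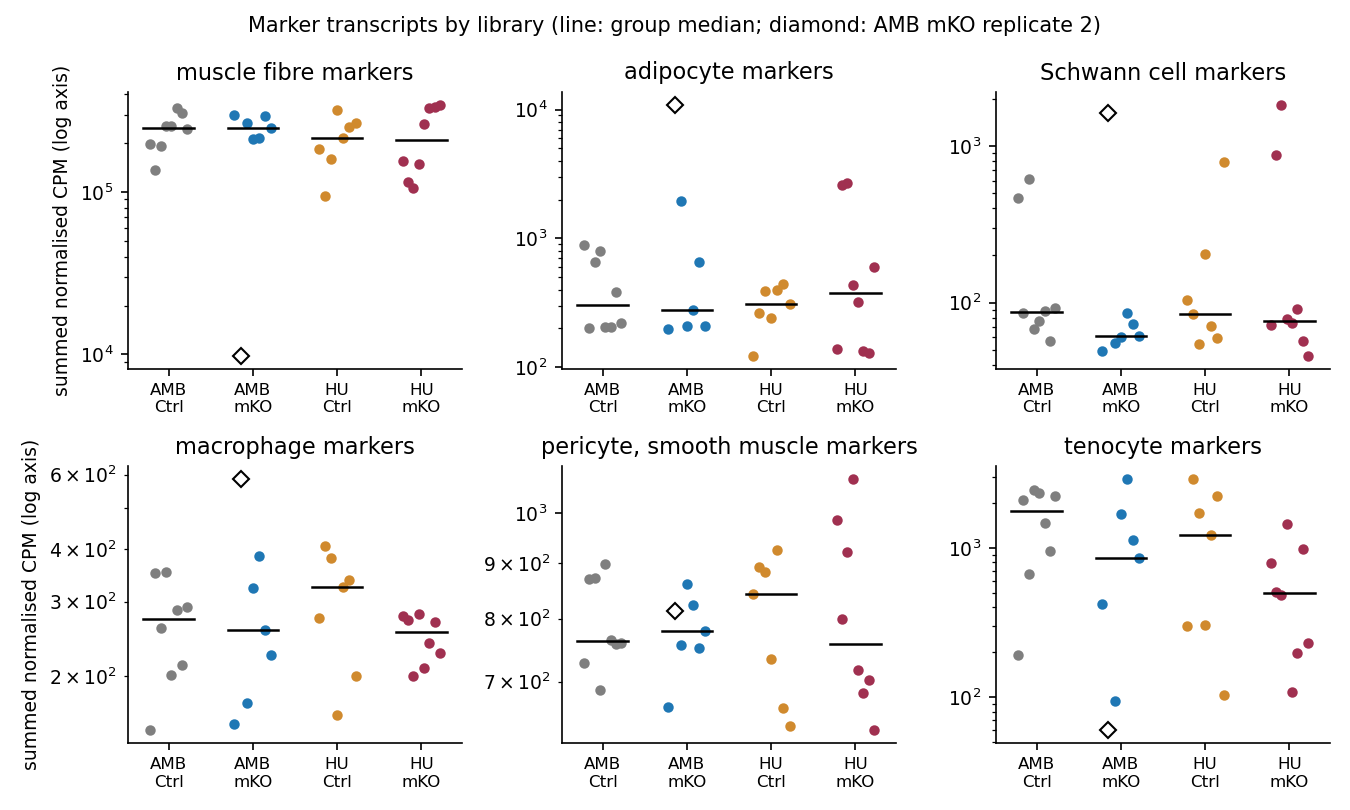
Summed normalised CPM of 6 marker lists (log axis) in each library of the 4 groups; the line is the group median and the open diamond is AMB mKO replicate 2. That library lies below all others for muscle fibre markers (9792 CPM) and above all others for adipocyte markers (10938 CPM), and HU mKO replicate 3 is highest for Schwann cell markers (1831 CPM).

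No gene was called for the interaction. With all 30 libraries edgeR's quasi-likelihood test called 0 of 16932 genes (0%) at a Benjamini-Hochberg adjusted p below 0.05, and the smallest adjusted p was 0.999. An unadjusted p below 0.05 was found for 410 genes (2.42%), 136 with a positive and 274 with a negative value, where 847 would be expected if no gene had an interaction. Without AMB mKO replicate 2 the test called 0 of 17055 (0%), with a smallest adjusted p of 1. In that fit 218 genes (1.28%), 133 positive and 85 negative, had an unadjusted p below 0.05, against 853 expected. Both counts lay below the expected ones, so small p values were rarer than an even spread would give. The absence of calls therefore does not show that no gene had an interaction. DESeq2 also called 0 in each set of libraries, with 459 and 259 genes at an unadjusted p below 0.05, and limma with library weights called 0, with 504 and 567.

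The same fits called many genes for unloading itself. In controls unloading changed 1882 genes (11.1%), 910 higher and 972 lower, and in mKO mice 1702 (10.1%), 897 higher and 805 lower. Without AMB mKO replicate 2 the counts were 2685 (15.7%) and 2302 (13.5%), of which 1340 and 1164 were lower. These 2 responses share no library. With all libraries 951 genes were called in both genotypes, which is 50.5% of those called in controls and 55.9% of those called in mKO mice, and all 951 moved in the same direction. Without AMB mKO replicate 2, 1581 were called in both genotypes, which is 58.9% of those called in controls and 68.7% of those called in mKO mice, and all 1581 moved in the same direction. A further 1104 were called in controls alone, of which 1082 had the same sign in mKO mice and 51 an interaction p below 0.05. Another 721 were called in mKO mice alone, of which 709 had the same sign in controls and 52 an interaction p below 0.05. A gene that passed in 1 genotype and not in the other was therefore not shown to respond differently.

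Response sizes were compared over the genes that moved. The average of both responses was called for 4830 genes (28.5%) with all libraries and for 5813 (34.1%) without AMB mKO replicate 2. Over these 5813, which were chosen for a shared response, the median size of the response was 0.50 (log2) in controls and 0.52 in mKO mice. The interaction, signed so that positive is a larger response in mKO mice, had a median of 0.025, with its outer percentiles (5 and 95) at -0.43 and 0.54. In 2604 of them (44.8%) the response was the smaller one in mKO mice. None was called for the interaction and 86 (1.48%) had an unadjusted p below 0.05.

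The intervals show how large a difference remained possible. The 95% interval of the interaction lay wholly within a 2-fold difference in either direction for 10893 genes (63.9%) without AMB mKO replicate 2, and for 9766 (57.7%) with it. Among genes with a mean of at least 10 CPM these shares were 90.2% and 80.5% of 8401. For the remaining genes the interval reached past a 2-fold difference, so a difference of that size was not excluded by it. The median standard error was 0.30 without and 0.32 with that library.

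**Figure D2:**
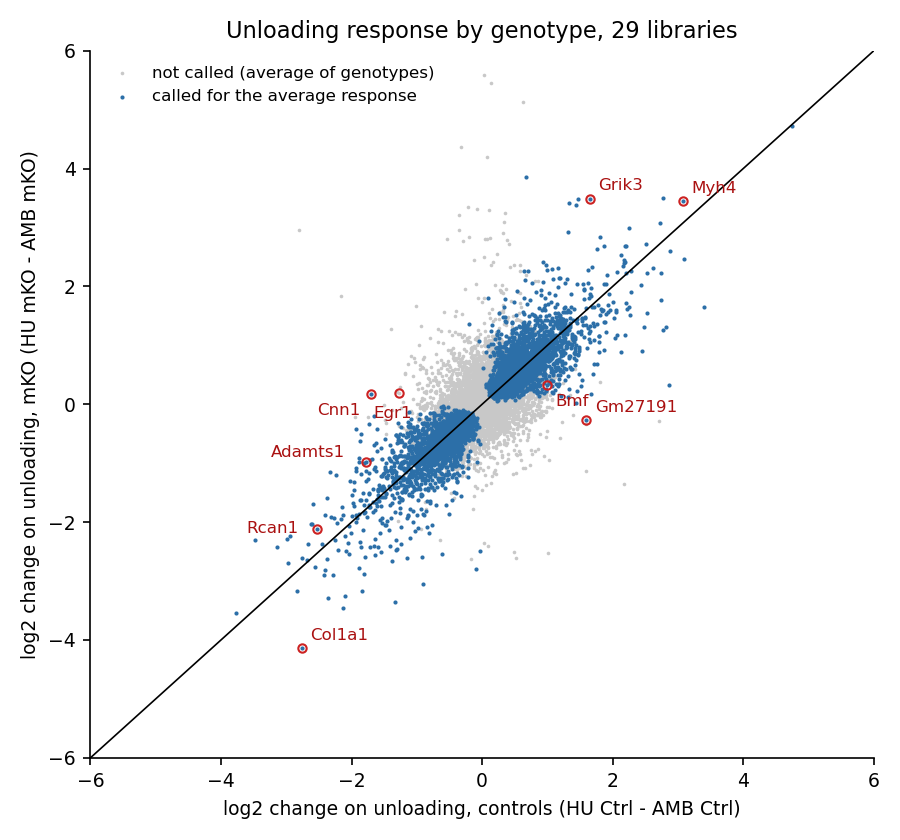
Log2 change on unloading in control mice (x) against mKO mice (y) for 17054 genes fitted without AMB mKO replicate 2 (1 gene falls outside the axes); blue genes were called for the average of both responses, red circles mark named genes and the line is equality. Blue genes lie along the line, which their choice by the average response favours. The circled genes off the line (Bmf, Gm27191, Cnn1, Egr1, Grik3) were not called for the interaction.

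Several of the genes with the largest average unloading response are given singly. Ketone body enzyme Bdh1 fell in both genotypes, 7.86-fold in controls (adjusted p = 2.51e-08) and 6.49-fold in mKO mice (adjusted p = 1.42e-07), from medians of 149 and 152 CPM in AMB Ctrl and AMB mKO to 17.5 and 16.7 CPM in HU Ctrl and HU mKO. Its interaction was 0.28 (95% interval -0.46 to 1.01). Tnfrsf12a, the receptor of the cytokine TWEAK, fell 6.78-fold and 6.08-fold, with an interaction of 0.16 (-1.06 to 1.37). Rcan1, a calcineurin regulator from the lists, fell 5.75-fold and 4.33-fold, with an interaction of 0.41 (-0.19 to 1.01). Sv2b, a synaptic vesicle protein gene, rose 7.33-fold and 6.10-fold, with an interaction of -0.27 (-1.49 to 0.96). The long noncoding RNA A730036I17Rik fell 13.7-fold and 11.6-fold, with an interaction of 0.23 (-1.19 to 1.65). Gm35576 rose 6.62-fold and 8.46-fold and Ccdc192 6.82-fold and 11.3-fold, with interactions of 0.35 and 0.73. In each of these genes the response to unloading was called in both genotypes and the interval of the interaction included 0. All but Rcan1 were chosen for a large average response, which favours genes called in both genotypes.

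Adult myosin heavy chains, the motor proteins that set fibre type, are given by genotype. Myh2, of fast oxidative IIa fibres, ran from 7144 through 10516 to 18846 CPM in AMB Ctrl and from 515 through 1702 to 6195 in HU Ctrl. In mKO mice it ran from 299 through 11361 to 13123 when ambulatory and from 398 through 1024 to 4152 when unloaded. Its fall was 5.92-fold in controls (adjusted p = 0.000601) and 6.77-fold in mKO mice (adjusted p = 0.000499), and the groups at different loads did not overlap in controls or, AMB mKO replicate 2 aside, in mKO mice. Myh1, of IIx fibres, rose 3.73-fold and 2.90-fold. It ran from 1413 to 7925 CPM in AMB Ctrl and from 5523 to 27962 in HU Ctrl. In AMB mKO it ran from 469 to 10326 CPM and in HU mKO from 4151 to 40525. The groups at different loads overlapped in both genotypes, also without AMB mKO replicate 2. The slow myosin Myh7 was 1.48-fold and 1.64-fold lower on unloading, and neither response passed (adjusted p = 0.175 and 0.118), while their average was called (adjusted p = 0.0154). Interactions were -0.19 ± 0.69 for Myh2, -0.36 ± 0.65 for Myh1 and -0.15 ± 0.42 for Myh7, all without AMB mKO replicate 2. With it, those of Myh2 and Myh7 were 0.16 ± 0.84 and 0.19 ± 0.72. Fast myosin genes are alike in sequence, so reads could be split among them.

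Myh4, the myosin of fastest IIb fibres, had the widest interval. It measured 13.8 through 23.9 to 4658 CPM in AMB Ctrl, where replicate 1 was highest and the next held 1147 CPM, and 19.7 through 1934 to 2861 in AMB mKO. After unloading it ran from 1257 through 4956 to 8125 in HU Ctrl and from 2676 through 7087 to 18886 in HU mKO. The average rise was called (adjusted p = 0.00709), and neither genotype's rise was called alone. The interaction was 0.34 ± 1.45 with all libraries and -2.28 ± 1.61 without AMB Ctrl replicate 1, so 1 control library turned its direction.

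**Figure D3:**
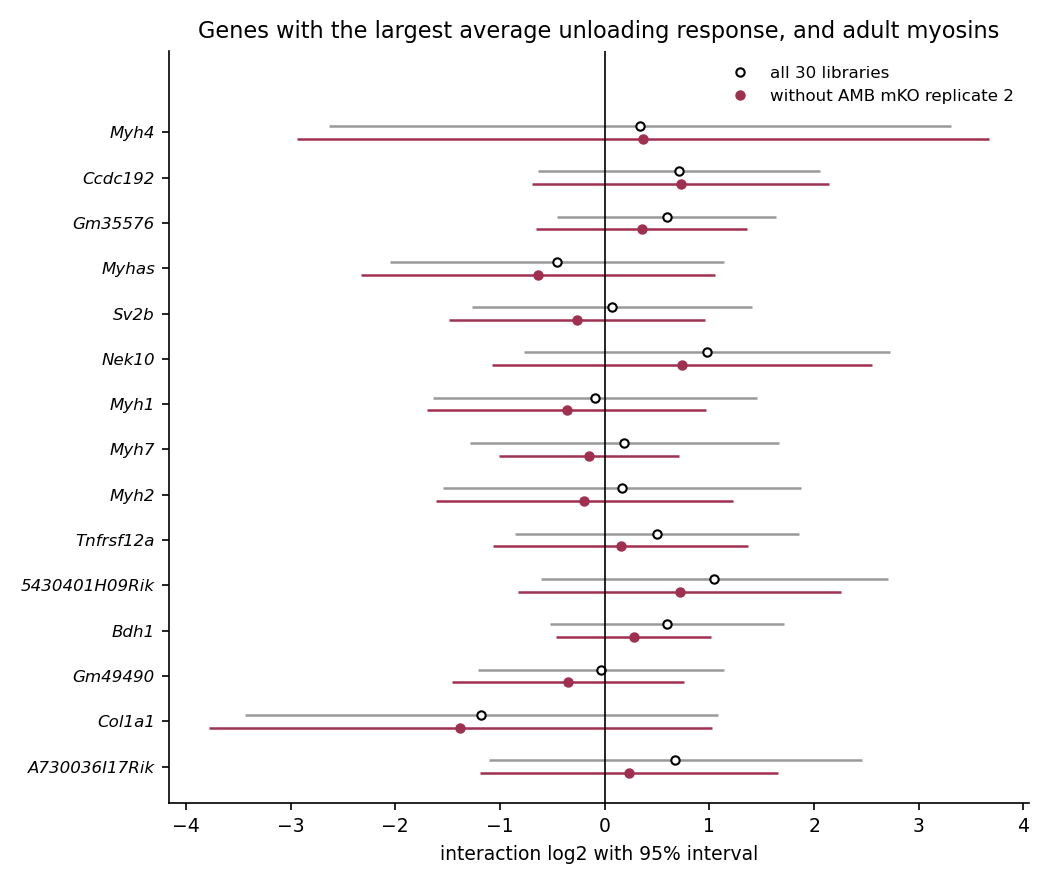
Interaction estimate (log2) with its 95% interval for the 12 genes with the largest average rise or fall on unloading and the adult myosins, with all 30 libraries (open) and without AMB mKO replicate 2 (filled). Every interval includes 0, and that of Myh4 is the widest (-2.63 to 3.31 with all libraries).

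The interaction of several fuel and mitochondrial lists turned with 1 library. All 47 tested nuclear-encoded genes of oxidative phosphorylation, the respiratory chain and ATP synthase, had a positive interaction with all 30 libraries, with a median of 0.19, and without AMB mKO replicate 2 there were 22 positive and 25 negative with a median of -0.014. Over all genes tested, 8060 of 16932 were positive with a median of -0.016, and 8479 of 17055 with a median of -0.0013. None of the 47 was called for the interaction in either set. Unloading lowered 16 of the 47 in controls and 2 in mKO mice with all libraries, against 5.74% and 4.75% of all genes tested. Without that library it lowered 30 and 22, against 7.86% and 6.82% of all genes tested, with median log2 changes of -0.55 in both genotypes. The gap between 16 and 2 moved with the library whose muscle fibre markers summed to 9792 CPM.

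Cox6a2, the muscle isoform of a subunit of respiratory complex IV, kept a positive value in both sets. It ran from 397 through 479 to 624 CPM in AMB Ctrl and from 241 through 316 to 488 in HU Ctrl. In AMB mKO it ran from 16.8 through 386 to 542, the lowest being replicate 2, and in HU mKO from 161 through 341 to 582. Its interaction was 0.73 ± 0.49 with and 0.42 ± 0.26 without that library. Ndufa1, a complex I subunit, was the single member with an unadjusted p below 0.05 with all libraries, at 0.63 (0.03 to 1.23), and 0.46 (-0.08 to 1.01) without AMB mKO replicate 2.

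The median of further metabolic lists also turned. The 14 genes of the tricarboxylic acid cycle had 13 positive interactions with all libraries (median 0.095) and 14 negative ones without AMB mKO replicate 2 (median -0.099). The 24 fat oxidation genes went from 15 positive (median 0.051) to 20 negative (median -0.098), and unloading lowered 14 of them in each genotype in the fit without that library (7.86% of all genes in controls and 6.82% in mKO mice). Acaa2, the last enzyme of mitochondrial β-oxidation, fell 1.94-fold in controls (adjusted p = 0.000209) and 2.31-fold in mKO mice (adjusted p = 4.86e-05), with an interaction of -0.25 (-0.75 to 0.25). Decr1, which lets unsaturated fatty acids be oxidised, fell 1.33-fold and 1.72-fold, with an interaction of -0.37 (-0.79 to 0.05). Glycolysis went from 10 of 12 positive (median 0.15) to 9 of 12 negative (median -0.094), and glucose uptake and glycogen genes from 12 of 13 positive (median 0.21) to 8 of 13 negative (median -0.026). The PGC-1 and nuclear receptor list had medians of 0.13 and -0.027. In it Ppara, a receptor that switches on fat oxidation, fell 2.35-fold and 2.03-fold, with an interaction of 0.21 (-0.38 to 0.80).

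Lipid and sterol synthesis genes, which AMPK restrains, turned the other way, from 11 of 15 negative (median -0.34) to 14 of 15 positive (median 0.29). With limma's library weights, without AMB mKO replicate 2, the median was -0.22, so the direction also depended on the weighting. Without the 3 libraries highest in adipocyte markers it was -0.026. Mlxipl, which encodes the glucose-responsive factor ChREBP, was the member called in both genotypes. It fell 1.94-fold in controls (adjusted p = 3.30e-06) and 1.59-fold in mKO mice (adjusted p = 0.000702), with an interaction of 0.29 (-0.07 to 0.65). The other 5 AMPK subunit genes had no interaction called, and without that library all 7 intervals lay within 2-fold.

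**Figure D4:**
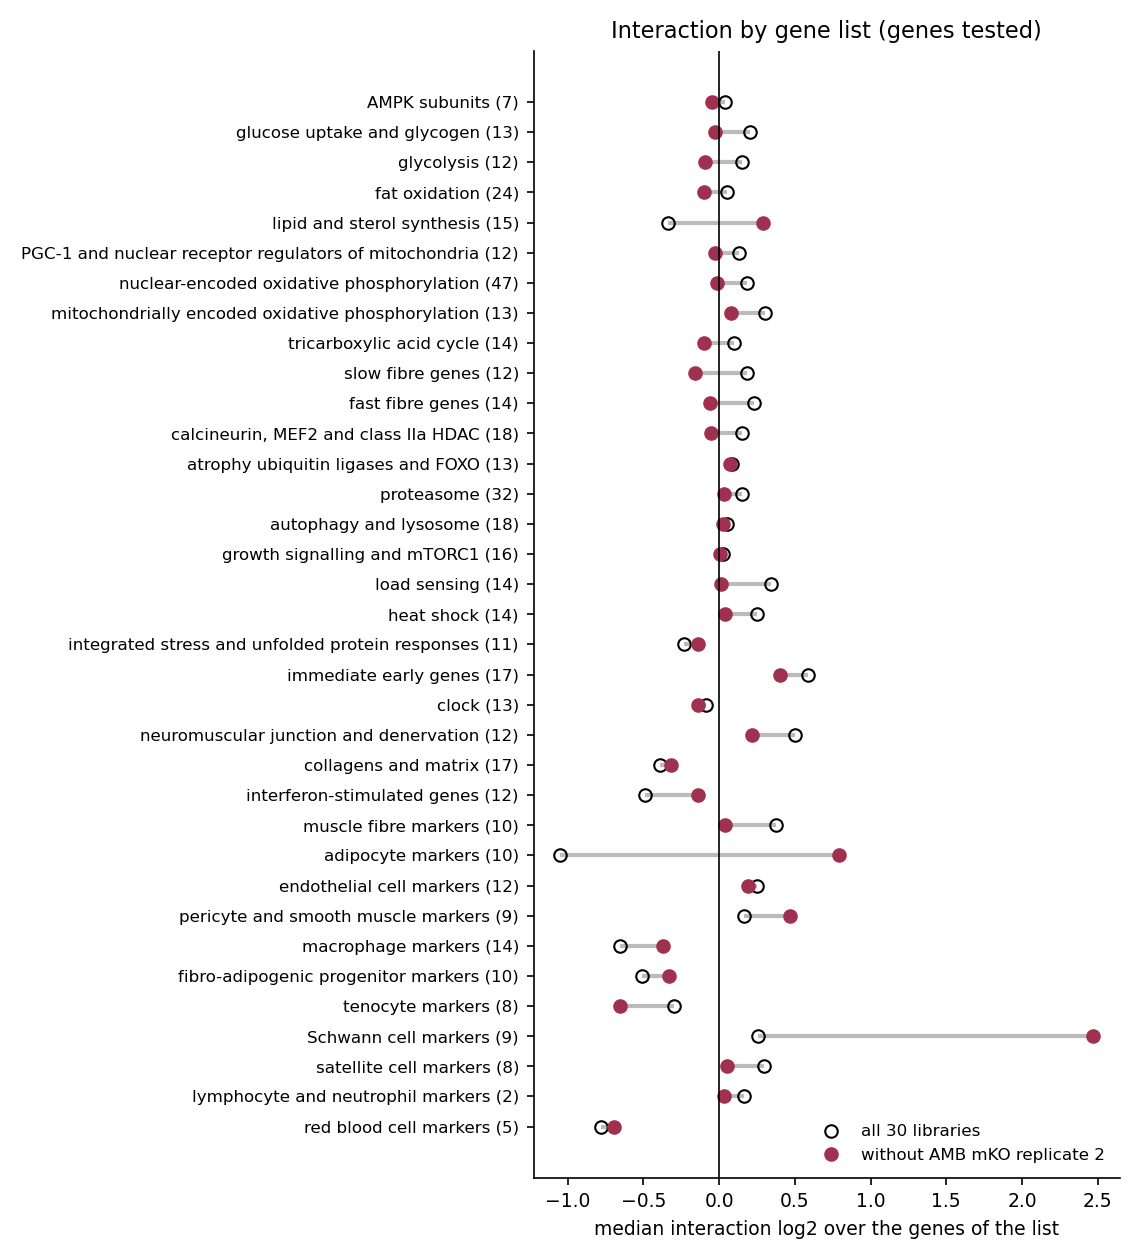
Median interaction (log2) over the tested genes of each list (number in brackets) with all 30 libraries (open) and without AMB mKO replicate 2 (filled). Medians of oxidative, fibre and adipocyte lists cross or approach 0 when that library is left out, while immediate early genes stay positive (0.59 and 0.40) and macrophage markers negative (-0.65 and -0.37).

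Genes of fibre type, load and protein breakdown also had other medians once AMB mKO replicate 2 was left out. Slow fibre genes went from 12 of 12 positive (median 0.18) to 8 of 12 negative (median -0.16), and 6 were called lower in each genotype. These and the next counts stand against 7.86% of all genes lowered in controls and 6.82% in mKO mice. Myl3, the slow and cardiac essential light chain, fell 2.13-fold and 2.52-fold, with an interaction of -0.24 (-0.92 to 0.44). Load-sensing genes went from a median of 0.35 to 0.012, with 9 lowered by unloading in controls and 10 in mKO mice of 14. Heat shock genes went from 0.25 to 0.038, with 10 of 14 lowered in each genotype. Hspa8, a constitutive chaperone, fell 1.45-fold and 1.89-fold, with an interaction of -0.38 (-0.86 to 0.10). All 32 proteasome genes had a positive interaction with all libraries (median 0.15), and 25 did without that library (median 0.032), each with an interval within 2-fold.

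Atrophy genes were not called for the interaction. The 13 ubiquitin ligase and FOXO genes had a median of 0.088 with and 0.073 without AMB mKO replicate 2. Trim63, which encodes the ligase MuRF1, ran from 159 through 233 to 643 CPM in AMB Ctrl, 29.0 through 177 to 462 in AMB mKO, 120.2 through 176 to 271 in HU Ctrl and 83.9 through 214 to 299 in HU mKO. Its groups overlapped and the interaction was 0.59 (-0.29 to 1.48). Foxo1, a factor that drives atrophy genes, was called higher on unloading in mKO mice (1.94-fold, adjusted p = 0.0235) and not in controls (1.29-fold, adjusted p = 0.332), and the difference itself, 0.58 (-0.21 to 1.37), was not called. Autophagy and lysosome genes and growth and mTORC1 genes had medians of 0.025 and 0.0049. Gabarapl1, which coats autophagosomes, fell 2.31-fold and 2.00-fold, with an interaction of 0.21 (-0.27 to 0.68).

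Immediate early genes, transcription factors and regulators induced within minutes by activity and growth signals, kept a positive interaction. With all libraries 16 of 17 were positive (median 0.59) and 4 had an unadjusted p below 0.05, and without AMB mKO replicate 2 the figures were 15 of 17, 0.40 and 3. No member was called. The median without that library ran from 0.31 to 0.50 over the other models and from 0.33 to 0.50 when a further library was left out. Egr1 ran from 6.27 through 13.1 to 42.9 CPM in AMB Ctrl, 5.11 through 6.16 to 14.8 in AMB mKO, 4.37 through 6.51 to 13.0 in HU Ctrl and 4.13 through 9.34 to 16.7 in HU mKO. The highest values lay in AMB Ctrl, and all 4 groups overlapped. Egr1 fell 2.42-fold on unloading in controls (adjusted p = 0.0202) and measured 1.15-fold higher in mKO mice (adjusted p = 0.791), with an interaction of 1.48 ± 0.56 (0.33 to 2.62). Fos, a subunit of AP-1, had an interaction of 1.39 ± 0.65 (0.06 to 2.72), with medians of 13.5 CPM in AMB Ctrl and 5.92 to 9.40 in the other groups. Btg2, an antiproliferative gene, fell in both genotypes, 2.01-fold and 1.48-fold, with an interaction of 0.44 ± 0.23 (-0.03 to 0.91).

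Vessel wall markers had positive medians with and without AMB mKO replicate 2. All 9 pericyte and smooth muscle markers were positive without it (median 0.47, and 7 of 9 with a median of 0.16 with it), and 3 had an unadjusted p below 0.05 in each set. Cnn1, smooth muscle calponin, ran from 0.464 through 1.10 to 1.37 CPM in AMB Ctrl, 0.0905 through 0.328 to 0.834 in AMB mKO, 0.132 through 0.275 to 0.746 in HU Ctrl and 0.209 through 0.384 to 0.849 in HU mKO. It fell 3.25-fold in controls (adjusted p = 0.00222) and had an interaction of 1.88 ± 0.57 (0.71 to 3.04). Its mean of 0.548 CPM lay below the 1 CPM asked of ranked genes, so its values rest on few counts. Myh11, smooth muscle myosin, fell 1.42-fold in controls (adjusted p = 0.0229) with an interaction of 0.64 ± 0.23 (0.17 to 1.11), and Acta2, smooth muscle actin, fell 1.54-fold (adjusted p = 0.0248) with 0.70 ± 0.29 (0.11 to 1.30). For these 3 genes AMB Ctrl had the highest median, and their rise or fall in mKO mice was not called. Endothelial markers had a median of 0.25 with and 0.19 without that library, which was 0.0056 with sex left out, and Vwf, a clotting factor of endothelium, an interaction of 0.63 ± 0.28 (0.05 to 1.2). Summed pericyte and smooth muscle markers had medians of 763, 768, 842 and 758 CPM in AMB Ctrl, AMB mKO without replicate 2, HU Ctrl and HU mKO, with overlapping ranges. The list's median interaction was 0.17 without the 3 libraries highest in adipocyte markers.

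Macrophage markers had 14 of 14 negative interactions with all libraries (median -0.65) and 12 of 14 without AMB mKO replicate 2 (median -0.37). Without that library their summed level had a median of 273 CPM in AMB Ctrl, 240.5 in AMB mKO, 325 in HU Ctrl and 254 in HU mKO, and no marker was called on unloading in either genotype. The median was -0.035 with limma's library weights and 0.59 in females alone. Here and below, values for females alone rest on a single AMB mKO mouse, since replicate 2 was left out. Fibro-adipogenic progenitor markers were negative in 10 of 10 in both sets (medians -0.51 and -0.33), and turned to 0.047 with library weights, 0.20 in females alone and 0.062 without HU Ctrl replicate 2. Collagens and matrix genes had medians of -0.39 and -0.32, which turned to 0.17 with library weights, 0.93 in females alone and 0.14 without HU Ctrl replicate 2. Col1a1, a chain of type I collagen, fell 6.78-fold in controls (adjusted p = 0.0324) and 17.6-fold in mKO mice (adjusted p = 0.00664), and its interaction of -1.38 ± 1.17 was not called. Its AMB mKO libraries ran from 192 through 1195 to 13334 CPM. Tenocyte markers had medians of -0.30 and -0.65 (0.037 in females alone) and red blood cell markers -0.78 and -0.70. No member of either list was called for the interaction.

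Adipocyte and Schwann cell markers differed between libraries of a group. Adipocyte markers had 10 of 10 negative interactions with all libraries (median -1.05) and 9 of 10 positive without AMB mKO replicate 2 (median 0.79). Without HU mKO replicates 2 and 3 as well, the median was -0.59. Schwann cell markers had medians of 0.25, 2.47 and 0.36 in these 3 sets. Schwann cell markers were also high in HU Ctrl replicate 7 (786 CPM) and AMB Ctrl replicates 1 and 3 (461 and 614 CPM), and in no AMB mKO library but replicate 2. The libraries named here, HU Ctrl replicate 7 aside, carried title letter c. Without replicate 2, replicate 3 was the only AMB mKO library of that letter, against 3 in each other group. With the title letter as covariate, without AMB mKO replicate 2, the medians were 0.30 for adipocyte and 0.22 for Schwann cell markers. The part of adipocyte and Schwann cell markers in the other lists was not tested beyond the values given.

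The remaining lists were the calcineurin and MEF2 genes (medians 0.15 with and -0.054 without AMB mKO replicate 2), fast fibre genes (0.23 and -0.063), mitochondrially encoded genes (0.31 and 0.081), integrated stress genes (-0.23 and -0.14), clock genes (-0.09 and -0.14), junction and denervation genes (0.50 and 0.22), interferon-stimulated genes (-0.49 and -0.14), satellite cell markers (0.30 and 0.050) and 2 tested lymphocyte and neutrophil markers (0.17 and 0.030). No member of any was called for the interaction. Of all 35 lists, 28 had a median that changed sign under at least 1 alternative, the fit of females alone included, or set of libraries. The 7 that did not were the immediate early, junction and denervation, endothelial, pericyte and smooth muscle and Schwann cell lists, all positive, and the clock and red blood cell lists, both negative. Dok7, which organises the neuromuscular junction, was lower on unloading in controls (1.50-fold, adjusted p = 0.00436) and measured 1.12-fold lower in mKO mice (adjusted p = 0.489), with a difference of 0.42 (-0.01 to 0.85).

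Genes with the smallest interaction p are described here as the head of a ranking in which none passed, and their values were what ranked them. Bmf, a proapoptotic member of the BCL2 family, ranked first with all libraries. It ran from 6.79 through 8.62 to 10.6 CPM in AMB Ctrl, 7.22 through 11.1 to 16.7 in AMB mKO, 12.2 through 17.7 to 21.1 in HU Ctrl and 10.5 through 13.5 to 17.6 in HU mKO. HU Ctrl lay above AMB Ctrl without overlap, while HU mKO overlapped AMB mKO. It rose 2.00-fold in controls (adjusted p = 1.12e-05 without AMB mKO replicate 2) and measured 1.25-fold higher in mKO mice (adjusted p = 0.142). Its interaction was -0.81 ± 0.21 (-1.24 to -0.38) with all libraries and -0.67 ± 0.205 (-1.09 to -0.25) without that library, and stayed between -0.94 and -0.67 whichever library was left out of the 30. Computed on log2 of CPM plus 0.5 within title letters, it was -1.13 in a, -0.47 in b and -0.53 in c, and 0.051 in c without AMB mKO replicate 2, where 1 AMB mKO mouse remains.

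Gm27191, a predicted gene without a known role, ranked first without AMB mKO replicate 2. It ran from 0.174 through 0.710 to 1.2 CPM in AMB Ctrl, 0.460 through 1.35 to 2.62 in the 6 AMB mKO libraries, 1.26 through 1.84 to 2.96 in HU Ctrl and 0.746 through 1.25 to 1.95 in HU mKO. AMB Ctrl and HU Ctrl did not overlap and the mKO groups did. It rose 3.03-fold in controls (adjusted p = 0.000495) and had an interaction of -1.87 ± 0.44 (-2.78 to -0.96). AMB mKO replicate 2 had no count for it, and with that library the interaction was -1.52 ± 0.63 (-2.81 to -0.23).

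Adamts1, a secreted protease that cleaves matrix proteoglycans, fell in both genotypes. It ran from 53.6 through 78.4 to 97.5 CPM in AMB Ctrl, 22.6 through 43.2 to 55.2 in AMB mKO, 13.9 through 20.1 to 36.7 in HU Ctrl and 13.4 through 21.01 to 33.4 in HU mKO. The unloaded groups overlapped throughout, and 6 of 7 AMB mKO libraries lay above all HU mKO ones. The fall was 3.42-fold in controls (adjusted p = 3.48e-07) and 1.96-fold in mKO mice (adjusted p = 0.00121), with an interaction of 0.96 ± 0.28 (0.38 to 1.53) with all libraries and 0.80 ± 0.27 (0.24 to 1.36) without AMB mKO replicate 2.

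Grik3, a kainate-type glutamate receptor subunit, rose in both genotypes. It ran from 0.406 through 0.726 to 2.36 CPM in AMB Ctrl, 0.128 through 0.364 to 0.790 in the 6 AMB mKO libraries, 1.21 through 1.89 to 5.95 in HU Ctrl and 1.42 through 6.82 to 9.18 in HU mKO. The rise was 3.15-fold in controls (adjusted p = 0.00298) and 11.3-fold in mKO mice (adjusted p = 1.64e-05), with an interaction of 1.83 ± 0.60 (0.61 to 3.06). With AMB mKO replicate 2, which held 3.94 CPM, the interaction was 0.90 ± 0.64 (-0.41 to 2.21).

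Zfpm2, a cofactor of GATA factors, rose 1.79-fold in controls (adjusted p = 0.000668) and measured 1.14-fold higher in mKO mice, with an interaction, all libraries included, of -0.78 ± 0.24 (-1.27 to -0.30). Medians were 2.50 CPM in AMB Ctrl, 2.69 in AMB mKO, 3.63 in HU Ctrl and 3.22 in HU mKO, and all 4 groups overlapped. The RNA 9430073C21Rik rose 6.86-fold in controls (adjusted p = 5.94e-06) and 2.39-fold in mKO mice (adjusted p = 0.0246), with an interaction of -1.52 ± 0.50 (-2.55 to -0.50). 2500004C02Rik rose 2.10-fold in controls (adjusted p = 0.000661), with an interaction, all libraries included, of -0.96 ± 0.30 (-1.57 to -0.35).

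Other genes at the head of the ranking are given with their highest libraries. Cd209d, a lectin of myeloid cells, had -2.05 ± 0.64 (-3.35 to -0.75) with all libraries, and AMB mKO replicate 2 held 5.79 CPM against 0.267 to 1.73 in the rest of its group. Without that library the interaction was -1.10 ± 0.60 (-2.33 to 0.12). Dnah2, an axonemal dynein, went from -1.35 ± 0.42 (-2.21 to -0.49) to -0.97 ± 0.42 (-1.83 to -0.11). Alb, the plasma albumin of liver, had 5.77 ± 1.42 (2.85 to 8.69) without AMB mKO replicate 2, with 48.8 CPM in AMB Ctrl replicate 5 and at most 3.28 CPM in the other AMB Ctrl libraries. Leaving out AMB Ctrl replicate 5 as well gave 3.08. HU mKO replicates 2 to 5 held 2.94 to 7.02 CPM of Alb, against at most 0.809 CPM in the rest of that group. AMB mKO replicate 2, left out here, held 15.97 CPM. AMB Ctrl replicate 5 was also the highest library in the liver transcripts Mug1 (2.89 CPM), Apoa1 (3.09 CPM) and Fgg (1.1 CPM). HU mKO replicates 4 and 5 held 1.1 and 1.39 CPM of Apoa1, against at most 0.147 in the rest of that group, replicates 2 and 3 included. Vdac3-ps1, a processed pseudogene whose reads could come from its parent gene, had 4.18 ± 1.25 with all libraries (1.63 to 6.74) with a range of 1.21 to 37.2 CPM in AMB Ctrl and 0.855 to 26.9 in HU mKO. Gm15564 had -3.12 ± 1.01 (-5.19 to -1.06), with 40.9 CPM in AMB mKO replicate 7 and at most 12.6 in the others of that group. The predicted genes Gm17229, Gm42918 and Gm43658 had 1.30, 1.44 and 1.45 without AMB mKO replicate 2, and each was called higher on unloading in mKO mice and not in controls, with the difference itself not called. Leaving out a further library gave 0.90 to 1.43, 1.159 to 1.82 and 1.23 to 2.02.

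**Figure D5:**
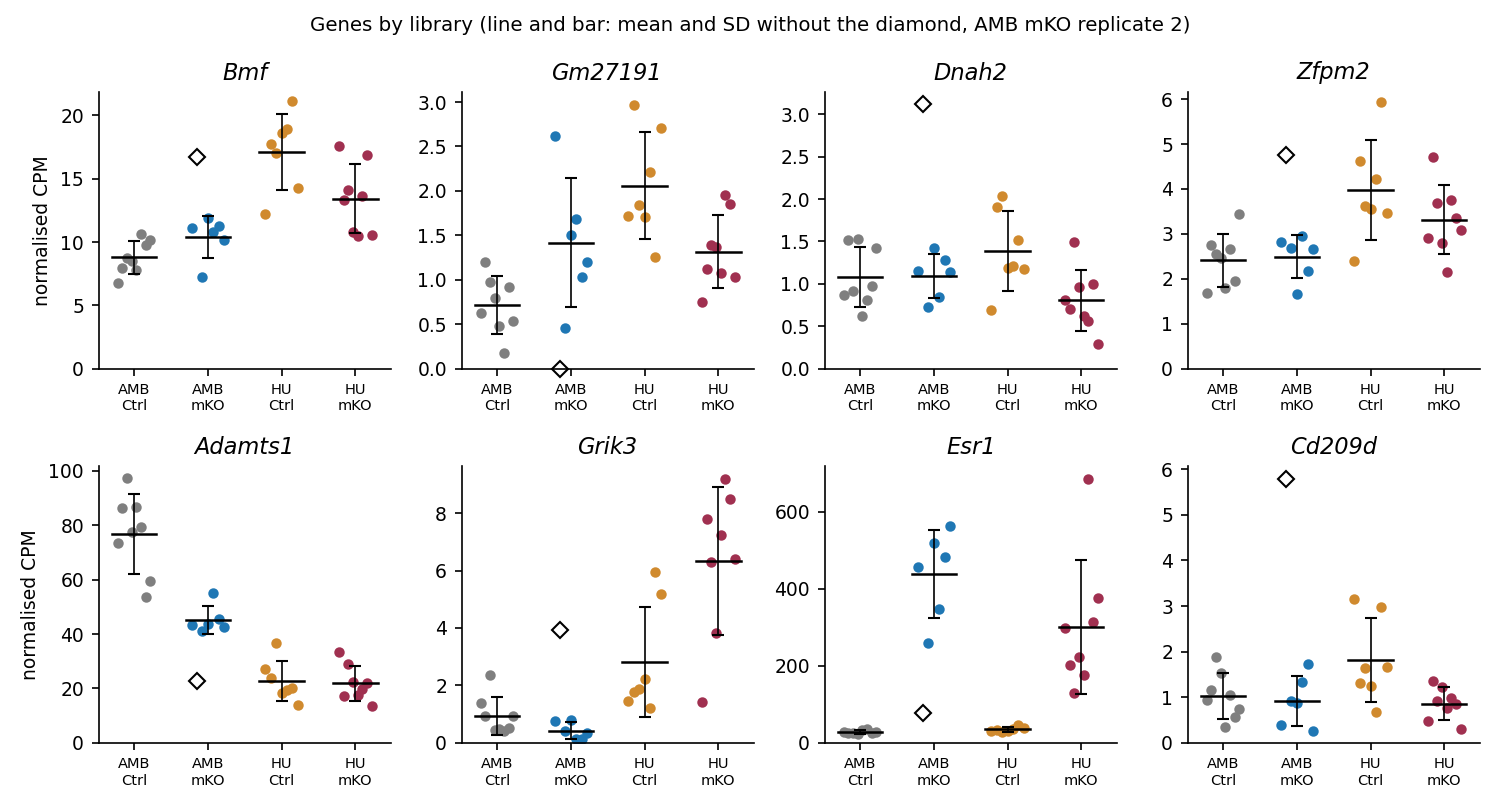
Normalised CPM per library (points) in the 4 groups for 8 genes named in the text; the line and bar are the mean and SD without the open diamond, AMB mKO replicate 2. HU Ctrl lies above AMB Ctrl for Bmf, AMB Ctrl has the highest median for Adamts1 (78.4 CPM), HU mKO has the highest median for Grik3 (6.82 CPM), and the diamond sits apart for Cd209d (5.79 CPM).

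Esr1 and Abat had higher medians in mKO mice at both loads. Esr1, the gene of oestrogen receptor α, ran from 23.5 through 26.4 to 36.9 CPM in AMB Ctrl, 28.1 through 32.9 to 46.0 in HU Ctrl, 76.6 through 458 to 563 in AMB mKO and 130.2 through 260.5 to 685 in HU mKO. Every mKO library lay above every Ctrl library. Unloading measured 1.27-fold higher in controls (adjusted p = 0.330) and 1.58-fold lower in mKO mice (adjusted p = 0.0776), and the interaction was -1.003 ± 0.346 (-1.71 to -0.30) without AMB mKO replicate 2 and -0.71 ± 0.45 (-1.63 to 0.20) with it. That library held the lowest mKO value. Counts are per gene, so reads from any introduced sequence that matches Esr1 would be counted too. Only mKO mice carried Cre, and whether they also carried such a sequence was not tested. Abat, which breaks down GABA, had medians of 12.3 and 8.75 CPM in AMB Ctrl and HU Ctrl and 19.1 and 18.4 CPM in AMB mKO and HU mKO, with an interaction of -0.08 ± 0.20. Its 95% interval, -0.48 to 0.32, lay within a 2-fold difference.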

How the data were processed

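Soleus RNA of 30 mice was sequenced. The authors deposited raw read counts per Ensembl gene, whole numbers with no normalisation and 1 column per mouse, all matched to a labelled sample. Per the submitters' processing notes, cutadapt 1.16, STAR 2.7.9a, featureCounts 1.6.3, DESeq2 1.34.0 and the builds GRCm39 and mm39 were used. No source used here names the annotation release or strand setting, so overlapping antisense genes are uncertain. The protocol texts attached to the samples describe people and myotubes, which does not match mouse soleus, and only the directional library kit was taken from them. Symbols were found for 52073 of 56980 genes. In 30 mice the labelled sex and the levels of Xist and Ddx3y were in accord. Mice are separate samples per the labels, and replicate numbers follow the listing order.

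Counts were filtered with filterByExpr, normalised by TMM and fitted with edgeR 4.0.16 (R 4.3.3) as a robust quasi-likelihood model with 4 groups and sex, once with all 30 libraries and once without AMB mKO replicate 2. A gene was called where the Benjamini-Hochberg adjusted p, computed across every tested gene, was below 0.05, and only then described as rising or falling. Values after ± are standard errors, and ranges in parentheses after an interaction are its 95% intervals, not adjusted for the number of genes. Unless a sentence says otherwise, folds, adjusted p and intervals come from the fit without AMB mKO replicate 2, CPM ranges include that library and are on the TMM scale of all 30. Folds include the sex term and need not equal ratios of printed medians.

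Named genes were the catalytic AMPK subunits, Esr1, Abat and the adult myosins, the 10 genes with the smallest interaction p in each fit (only those with symbols, averaging 1 CPM or more), the 6 with the largest average rise and the 6 with the largest average fall, and up to 4 members of each of 24 gene lists and 11 marker lists by interaction p. The comparison, lists and rule were chosen with earlier results of these data known. Lists were described by counts and medians and were not tested. Alternatives were DESeq2 1.42.0, limma 3.58.1 with library weights, median-of-ratios size factors, testing genes without a count filter or only above a mean of 1 CPM, omitting sex, adding the title letter, using 1 sex, and omitting each library. One more, omitting the 3 libraries highest in adipocyte markers, was chosen after seeing the data. Scripts were tested on simulated counts before use. Some results that the naming rule selects are not reported here.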

Additional observations from a re-analysis of the deposited data

Results flagged for a closer look

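In 30 of 148 groups of library values examined (20.3%), the highest or lowest library stood far from the others by Dixon's criterion. Of these 30, 12 were AMB mKO replicate 2. Independent, normally spread values meet the criterion in about 5% of groups. The groups here share libraries and include genes ranked by their interaction p, so 5% is not the share to expect of them. That library was the lowest of its group in muscle fibre markers (9792 CPM), Adamts1 (22.6 CPM) and Myh2 (299 CPM). It was the highest in adipocyte (10938 CPM), fibro-adipogenic progenitor (8676 CPM) and Schwann cell markers (1606 CPM) and in Zfpm2 (4.75 CPM), Cd209d (5.79 CPM), Dnah2 (3.12 CPM), Alb (15.97 CPM), Grik3 (3.94 CPM) and Prkaa1 (36.2 CPM).

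In the rest of the AMB mKO group, replicate 6 stood apart in lymphocyte and neutrophil markers (6.74 CPM) and replicate 7 in Gm15564 (40.9 CPM). Among AMB Ctrl mice, replicate 1 was high in Gm17229 (16.2 CPM) and Myh4 (4658 CPM), replicate 5 was high in Alb (48.8 CPM) and replicate 7 was low in 2500004C02Rik (0.403 CPM). Among HU Ctrl mice, replicate 7 was high in Schwann cell markers (786 CPM), replicate 1 in Gm17229 (8.72 CPM), replicate 5 in Alb (1.68 CPM) and replicate 4 in Myh2 (6195 CPM). Among HU mKO mice, replicate 3 was high in Schwann cell markers (1831 CPM) and low in the share of counts from mitochondrial genes (3.39%), and replicate 4 was high in endothelial (774 CPM) and red blood cell markers (3199 CPM). Also in that group, replicate 8 was high in Gm15564 (5.96 CPM), replicate 6 in Esr1 (685 CPM) and replicate 7 in Myh7 (17888 CPM) and Myh2 (4152 CPM). What set these libraries apart was not tested.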

How the results depend on the processing

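The count of 0 genes called for the interaction held under every alternative with all 30 libraries and whichever library was left out, with 195 to 1602 genes at an unadjusted p below 0.05 over the other models. Without AMB mKO replicate 2 it was 1 with no low-count filter (Mug1, a liver gene with 42 counts in AMB Ctrl replicate 5 and none in 22 libraries, adjusted p = 0.0332 by edgeR) and 1 in females only (ENSMUSG00000119873, adjusted p = 0.0352 by edgeR), where a single AMB mKO female is assumed to vary like the other groups, and 0 otherwise, whichever further library was left out. The count for unloading in controls was 4287 with library weights, 1225 with no low-count filter, 302 in males only and 26 in females only. The count for unloading in mKO was 987 with no low-count filter, 2591 with the title letter as covariate, 763 in males only and 2 in females only, and for unloading averaged over genotypes 3069 in males only and 438 in females only. Fewer mice enter the fits of 1 sex. Of the interactions of named genes recomputed, 1042 values kept their direction and 40 reversed. The reversals were confined to Prkaa2, Abat and the myosins with all 30 libraries, where the main values were near 0 against their errors. Apart from Prkaa1 and Esr1, the genes without a reversal had been ranked by interaction p in these same data. That choice favours a kept direction, so these counts do not measure stability. With library weights Prkaa2 was -0.0455, Myh7 -0.035 and Myh4 -3.12. With sex left out Abat was 0.18, Myh2 -0.35 and Myh4 -0.25. With the title letter Abat was 0.043, Myh1 0.32 and Myh4 -0.017. In males only Abat was 0.12, Myh7 -0.19, Myh2 -0.72 and Myh1 0.10. Leaving out each library in turn gave -0.10 to 0.11 for Abat, -0.15 to 0.37 for Myh7, -0.27 to 0.70 for Myh2, -0.36 to 0.33 for Myh1 and -2.28 to 0.77 for Myh4. The causes were not tested. No paired analysis was possible because the labels give no number that ties a mouse of 1 group to a mouse of another.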
